A study of Mus musculus with 16 samples.

Results

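The 11 Myc rhabdoid tumors of the series were divided by the Smarcb1 RNA that remained in them. A tumor was called higher when its Smarcb1 level, in TPM (transcripts scaled for gene length and library size), was at least 12 and lower when it was not, which gave 6 higher and 5 lower tumors among 16 tumors in all. The other 5 were Shh tumors. The members of both groups were thus chosen by the measured Smarcb1 level, so that this gene is given as a description only, and each comparison concerns the other genes.

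Each tumor came from a different mouse that carried Rosa26::CreERT2 and Smarcb1flox/flox, and tamoxifen had been given to the embryo at E6, E7 or E8. The Cre is driven by a ubiquitous promoter, so that recombination was not directed to a cell type, and the RNA came from bulk tumor tissue. All Myc tumors lay outside the brain parenchyma, 6 of them intracranial (extra-CNS) and 5 extracranial, in the jaw, nose, mouth or back. The Shh tumors were intra-CNS, and all of them had been induced at E6. The tumor of mouse 43990A is extracranial (nose) in the labels and intracranial extra-CNS in the study's table of mice, and it was kept as extracranial. No tumor without recombination and no normal tissue was analysed here.

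Smarcb1 encodes a core subunit of the SWI/SNF complexes, which move nucleosomes and keep enhancers open. Rhabdoid tumors lose both copies of the gene, whereas vessels, leukocytes, muscle, bone and brain around or within the tumor carry the gene and may transcribe it. Bulk RNA mixes these cells, and in such data fewer cells of a type and less RNA per cell cannot be told apart. The question of the comparison is which normal cell types were better represented in the tumors with more Smarcb1 RNA.

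In the lower group, Smarcb1 was 6.48 TPM in 43992A, 8.63 in 43990A, 9.16 in 29941C, 10.7 in 29225D and 11.7 in R26P170. In the higher group, it was 12.2 TPM in 43987A, 16.7 in 43989C, 18.5 in R26P123, 22.1 in 43998A, 26.1 in 43825B and 43.7 in R26P115. The groups averaged 23.2 ± 11.1 TPM (SD, n = 6) and 9.33 ± 2.01 TPM (SD, n = 5). The tumors on either side of the cut, R26P170 and 43987A, lay within 1 TPM of each other, while R26P115 stood well above the rest. The gene lies on the minus strand at chr10:75896769-75921617 (GRCm38). The values cover the whole gene and do not separate intact from recombined transcripts.

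**Figure D1:**
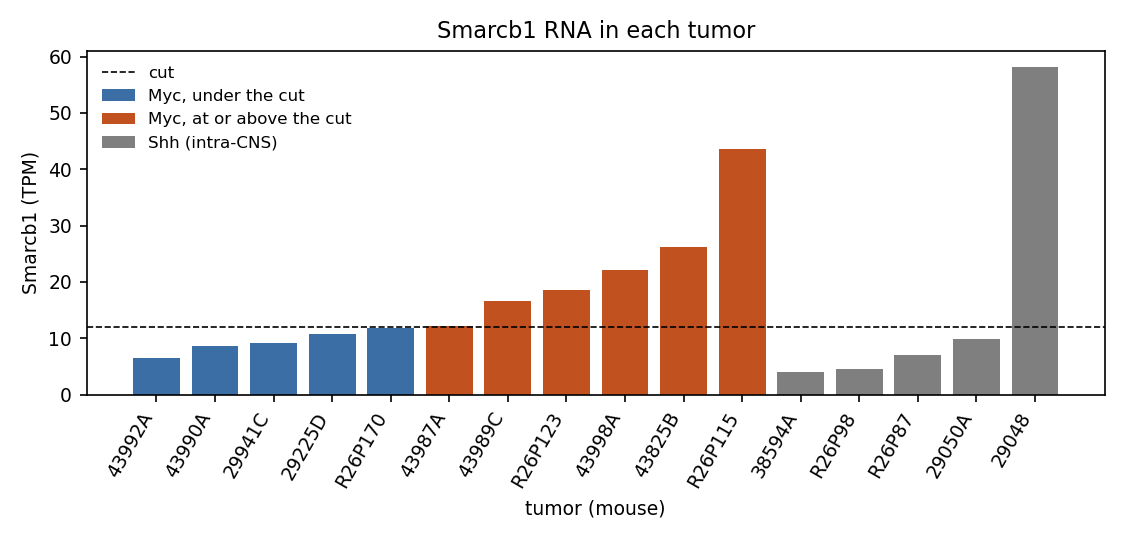
Smarcb1 RNA in TPM (bars) in each of the 16 tumors, with lower Myc tumors in blue, higher Myc tumors in orange, Shh tumors in grey and the cut of 12 TPM as a dashed line. The Myc tumors run from 6.48 to 43.7 TPM without a gap at the cut, and the Shh tumor 29048 reaches 58.1 TPM.

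Total counts ran from 17889968 to 110177889 over the 11 tumors and did not differ between the groups beyond their spread (two-sided exact permutation test, p = 0.238). Of the higher tumors, 4 of 6 were extracranial, against 1 of 5 lower tumors (p = 0.242, Fisher's exact test, two-sided). The latter is 43990A, whose site differs between the sources, so that this count and every value with site as a covariate rest on its label. By the table of mice no lower tumor was extracranial. Tamoxifen at E8 was recorded for 5 of 6 and 3 of 5 tumors (Fisher's exact test, p = 0.545). Age was 120 ± 47.4 days (SD, n = 6) against 110 ± 47.8 days (SD, n = 5; exact permutation test, p = 0.766). The sex labels did separate the groups. All 6 higher tumors were from females, and the lower group held 1 female, 3 males and 1 mouse without a sex label (Fisher's exact test on the labelled mice, p = 0.0333).

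No gene passed the threshold between the groups in edgeR's quasi-likelihood test (adjusted p under 0.05 and at least a 2-fold change), so that 0% of 21260 genes were called. At an unadjusted p under 0.05, 1503 genes (7.07%) were higher and 906 (4.26%) were lower in the tumors with more Smarcb1, and the median log2 fold change of all genes was 0.01. The Wald test of DESeq2 placed 226 genes (1.06%) past the same threshold in the higher direction and 92 (0.433%) in the lower direction. Of 14273 genes whose counts averaged 50 or more, 111 (0.778%) had no overlap between the groups in CPM (counts scaled for library size). The fold changes below are therefore sizes with their errors, and those named as past an unadjusted p were not called by edgeR. Intracranial against extracranial site, fitted on the same 11 tumors, called 1 gene (0.0047%).

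Among the genes without overlap, the smallest unadjusted p in the higher direction belonged to Fmn1, Tnfaip8, Myo1e and Psd3, of which none was called by edgeR and all were called by DESeq2. Fmn1, a formin that nucleates actin filaments, was at 0.436 to 1.21 TPM in the lower tumors and 1.75 to 9.43 TPM in the higher tumors (log2 fold change 2.89 ± 0.44 SE, edgeR's adjusted p = 0.167). Myo1e, a class I myosin of the cell cortex, was at 9.89 to 27.2 TPM against 42.9 to 138 TPM (log2 fold change 2.36 ± 0.39 SE). In both cases every higher tumor lay above every lower tumor. In the lower direction the smallest unadjusted p belonged to Ppm1d, Rspo1, Pdxk and Prr36. Ppm1d, a phosphatase that opposes p53 signalling, was at 41.8 to 111 TPM in the lower tumors and at 18.2 to 22.4 TPM in the higher tumors (log2 fold change -1.64 ± 0.26 SE, edgeR's adjusted p = 0.167). Rspo1, a secreted enhancer of Wnt signalling, was at 16.8 to 253 TPM against 0.17 to 6.83 TPM.

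The sex difference showed in the RNA as well. Ddx3y, a Y-linked RNA helicase, was above the floor of 3 counts in 0 of 6 higher and 4 of 5 lower tumors, including R26P170, whose sex is not labelled. Its counts were 0 in every higher tumor, and its CPM was at least 384-fold lower there. Without the female lower tumor 43992A, 6 genes passed edgeR's threshold, namely the Y-linked Ddx3y, Kdm5d, Uty and Eif2s3y, the X-inactivation RNA Xist, and Ppm1d. These Y-linked genes and Xist were chosen after their values were seen. With sex as a covariate and without R26P170, 17 genes passed, all lower with more Smarcb1, and Ppm1d was among them (log2 fold change -2.49). The median log2 fold change of all genes moved from 0.01 to 0.50 in that fit, and Ppm1d lies well below this shift. Its lower group held 1 female and its higher group no male, so that sex and Smarcb1 group rest on that female to be told apart. Without the lower tumor 43990A, 1 gene passed, Rap1gap, which restrains the GTPase Rap1.

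The cell types were described by 31 lists of marker genes, besides lists for the cell cycle, SWI/SNF subunits, and oncofetal genes and Myc. The level of a list in a tumor was the mean of log2(TPM + 1) over its members. Every list overlapped between the groups. No list was high in all 6 higher tumors, and different higher tumors stood out for different tissues. The median log2 fold change over members was 9.0 for choroid plexus, 5.60 for osteoclast, 4.74 for squamous epithelium, 3.53 for ciliated epithelium, 3.50 for melanocyte, 3.23 for skeletal muscle and 1.49 for fibroblast, against 0.01 over all genes. Of these, skeletal muscle was the list most widely shared among the higher tumors.

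**Figure D2:**
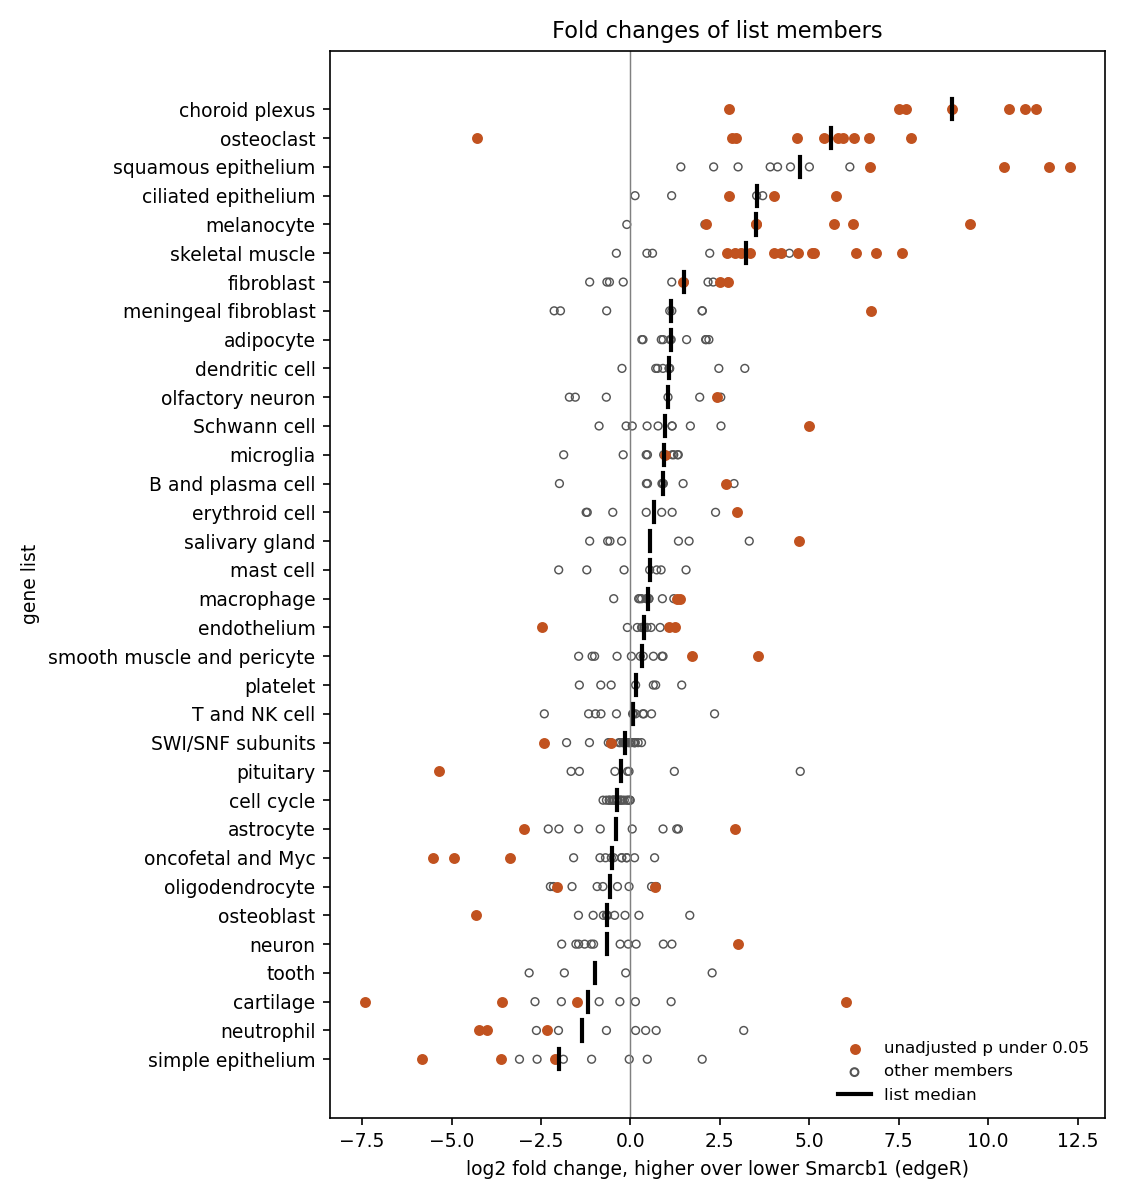
Each row is a gene list and each point the edgeR log2 fold change of a member, higher over lower Smarcb1, with filled orange points for an unadjusted p under 0.05 and the list median as a black bar. Choroid plexus (median 9.0) and osteoclast (5.60) lie farthest to the right and simple epithelium (-2.0) farthest to the left, while the cell cycle and SWI/SNF lists stay near 0.

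Skeletal muscle genes had higher levels in 4 of the 6 higher tumors than in any lower tumor. The summed TPM of the 20 genes was 219 in 43987A, 249 in 43989C, 1209 in R26P123 and 250.4 in 43825B, and 33.2 to 162.3 in the lower tumors. The remaining higher tumors did not share this, with 43.1 in 43998A and 109.7 in R26P115, which lie within the lower range of the sum. By level, R26P115 (0.795) lay below every lower tumor (0.848 to 1.251), and 43998A (1.02) lay among them. Of the 20 members, 19 had a log2 fold change above 0 and 12 an unadjusted p under 0.05, all in that direction, where 7.07% of all genes were. DESeq2 called 8 of the 20 higher, namely Ckm, Myh4, Mylpf, Tnnc2, Atp2a1, Casq1, Ttn and Neb, where it called 1.06% of all genes.

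Ckm, the muscle creatine kinase, was at 0.57 TPM in 43987A, 8.31 in 43989C, 43.5 in R26P123, 3.24 in 43998A, 12.2 in 43825B and 0.06 in R26P115. In the lower tumors it was at 0.03 to 0.18 TPM, with counts of 12 at most. All higher tumors but R26P115 lay above all lower tumors (log2 fold change 6.87 ± 1.5 SE, DESeq2's adjusted p = 3.85e-06). Mylpf, the fast-fiber regulatory light chain, was at 44.2, 14.4, 108.6, 2.75, 28.7 and 3.72 TPM in the higher tumors in the same order and at 1.40 to 2.80 TPM in the lower tumors. Here 43998A fell just within the lower range in TPM, although the groups did not overlap in CPM (log2 fold change 4.20, DESeq2's adjusted p = 6.77e-05). Acta1, the skeletal actin, overlapped widely, with 0.05 to 37.2 TPM in the lower tumors and 0.06 to 285 TPM in the higher tumors (log2 fold change 2.92 ± 1.76 SE). Its log2 fold change was 1.64 without R26P123, 5.22 without 43992A and 1.41 with site as a covariate.

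Myh4, Mylpf, Tnnc2 and Atp2a1 are genes of fast fibers, and Ttn and Neb encode giant sarcomere proteins. Myh4, a fast myosin heavy chain, was at 0.00 to 0.02 TPM in the lower tumors, 6.10 TPM in R26P123, 3.84 in 43825B, 1.73 in 43989C and 1.04 in 43987A, and at 0 in 43998A and R26P115. The titin gene Ttn reached 1.59 TPM and Tnnc2, the fast troponin C, 98.6 TPM, both in R26P123. Myh1, Myh2 and Myh4 are close copies of each other whose reads can be shared. Actn3, Eno3 and Ryr1 did not follow, with log2 fold changes of -0.39, 0.46 and 0.62 and standard errors of 1.13, 0.77 and 0.87. The median of the list was 2.54 without R26P123 and 3.49 without R26P115, and 2.82 with site as a covariate. The tumors with the most muscle RNA came from jaw, back and intracranial sites, and the tumor of the mouth had little.

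The promoters of muscle genes carry E-boxes, the sites of the myogenic factors Myod1 and myogenin, and are shown because the members were high together in 4 tumors. RefSeq (GRCm38.p6) gave a promoter for 15 of the 20 genes. In the 250 bases before the start, 9 of these 15 (60%) held the E-box CAGCTG, which reads the same on both strands, against 14.7% of 27025 genes with a promoter. The 250 bases of Ckm (chr7:19410844-19411093, plus strand), Mylpf (chr7:127211358-127211607, plus strand) and Myh4 (chr11:67237562-67237811, plus strand) follow, with the E-box in capitals. A match is a sequence feature and no measurement of binding.
Ckm: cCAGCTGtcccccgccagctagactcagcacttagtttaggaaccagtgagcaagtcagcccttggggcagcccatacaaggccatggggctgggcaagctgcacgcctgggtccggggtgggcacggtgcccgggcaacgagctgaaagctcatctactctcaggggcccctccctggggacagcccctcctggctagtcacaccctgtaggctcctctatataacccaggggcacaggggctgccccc
Mylpf: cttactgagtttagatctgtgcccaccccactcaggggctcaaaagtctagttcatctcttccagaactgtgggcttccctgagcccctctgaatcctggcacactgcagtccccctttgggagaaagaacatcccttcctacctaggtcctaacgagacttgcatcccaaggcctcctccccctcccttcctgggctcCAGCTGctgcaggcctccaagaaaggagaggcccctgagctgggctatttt
Myh4: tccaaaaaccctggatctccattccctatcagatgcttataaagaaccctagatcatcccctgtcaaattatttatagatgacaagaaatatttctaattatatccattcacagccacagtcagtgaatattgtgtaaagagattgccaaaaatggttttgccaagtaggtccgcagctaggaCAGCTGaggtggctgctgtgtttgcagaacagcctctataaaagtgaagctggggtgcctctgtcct

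Osteoclast genes were high in 3 higher tumors, all extracranial. Osteoclasts are multinucleated cells of the myeloid lineage that dissolve bone with secreted acid, the protease cathepsin K (Ctsk) and the phosphatase Acp5. The summed TPM of the 10 genes was 31660 in 43998A, 4034 in R26P123 and 1660 in 43825B, and 56.9 to 354.0 in the other higher tumors, where the lower tumors had 66.1 to 222.4. Of the 10 members, 9 had an unadjusted p under 0.05 in the higher direction and 1, Calcr, in the lower direction, where 7.07% and 4.26% of all genes were. DESeq2 called 5 of the 10 higher, Ctsk, Acp5, Mmp9, Atp6v0d2 and Nfatc1, against 1.06% of all genes.

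Ctsk was at 11043 TPM in 43998A, 1406 in R26P123 and 519 in 43825B, and at 9.55 to 24.9 TPM in the other higher tumors. In the lower tumors it ran from 2.22 to 63.2 TPM, so that 3 tumors stood above and 3 within that range (log2 fold change 6.68 ± 2.04 SE, DESeq2's adjusted p = 0.000544). Acp5 was at 9967, 1175 and 550.2 TPM in the same 3 tumors and at 37.5 to 164 TPM in the lower tumors. Dcstamp and Ocstamp, needed for the fusion of osteoclast precursors, were at 321 and 355 TPM in 43998A, and Dcstamp was under 1 TPM in every lower tumor. Calcr, the calcitonin receptor, went the other way through a single lower tumor, 43990A, with 99.1 TPM against 0.00 to 2.71 TPM in the higher tumors. Without 43998A the median of the list was 2.97, and with site as a covariate it was 1.24.

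Osteoblast genes, those of bone formation, did not share this. Of the 10 osteoblast genes, 2 had a log2 fold change above 0 and 1, Bglap2, had an unadjusted p under 0.05 in the lower direction (4.26% of all genes). Their median of -0.65 was 1.04 with the sex label as a covariate, where that of all genes was 0.50. Sp7, the osteoblast transcription factor, was high in lower and higher tumors alike, with 136 TPM in 43990A, 66.2 in 29225D and 70.8 in R26P123. Cartilage genes had a median of -1.19, with 3 of 10 members past an unadjusted p of 0.05 in the lower direction (4.26% of all genes) and 1, Col9a3, in the higher direction (7.07%) through R26P115. With the sex label as a covariate the median was 0.42, where that of all genes was 0.50, and without 29941C it was -0.78. Matn3, a cartilage matrix protein, was at 774 TPM in 43990A and 864 in 29225D and at 9.42 TPM or less in the higher tumors (log2 fold change -7.41 ± 2.27 SE, DESeq2's adjusted p = 0.00264). Acan, the aggrecan gene, was at 16.7 TPM in 29225D and at 1.05 TPM or less in every other tumor. With the cut at 10 TPM, which moves 29225D and R26P170 to the higher group, its log2 fold change turned from -3.60 to 2.05.

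Choroid plexus, ciliated epithelium and melanocyte lists had their highest level in R26P115, the intracranial tumor with the most Smarcb1. The choroid plexus is the epithelium that secretes cerebrospinal fluid. The summed TPM of its 7 genes was 6413 in R26P115, 13.7 to 138.0 in the other higher tumors and 3.2 to 73.8 in the lower tumors. Folr1, its folate receptor, was at 1178 TPM in R26P115 and at 5.19 TPM or less in the other 10. Kcnj13, an apical potassium channel, was at 759 TPM against 0.476 TPM at most, and Kl, which encodes klotho, at 1766 TPM against 0.485 TPM at most. Aqp1, a water channel that vessels and other tissues share, made up most of the sum in the other tumors and reached 128 TPM in R26P123. All 7 members had an unadjusted p under 0.05 in the higher direction (7.07% of all genes) and had their highest value in this tumor. DESeq2 called 0 of these 7 higher, where it called 1.06% of all genes. It also called 0 members higher in the ciliated epithelium, melanocyte and squamous epithelium lists. Without R26P115 the median of the choroid plexus list was 0.36 in place of 9.0, and the log2 fold change of Folr1 turned from 7.52 to -2.49.

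Genes of motile cilia, which the choroid plexus and ependyma carry, were high in the same tumor. Foxj1, the master factor of motile cilia, was at 166 TPM in R26P115, 0.25 to 0.69 TPM in the other higher tumors and 1.39 to 4.63 TPM in the lower tumors. The higher tumors other than R26P115 thus lay below every lower tumor for this gene. The median of the list was 3.53 with R26P115 and -2.59 without it. Of the melanocyte list, Oca2 was at 66.1 TPM and Mitf at 60.4 TPM in R26P115, but the defining markers were low there, with 2.74 TPM for Pmel, 0.24 for Tyr and 11.1 for Dct. With the 3 members that were at the floor in a whole group set to their bounds, the median of this list was 1.26 in place of 3.50, and without R26P115 it was 1.68. Mitf, which osteoclasts also use, was at 35.2 TPM in 43998A. The list is therefore described by its leading genes rather than as melanocytes. Aldh1l1, an astrocyte marker, was at 84.9 TPM in R26P115 and 0.47 to 11.6 TPM elsewhere, whereas Gfap was at 49.0 TPM there and 164 in the lower tumor 29225D.

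R26P115 also differed in Myc and in genes of proliferation. Its Myc level was 8.73 TPM, against 87.0 to 225 TPM in the other 10 Myc tumors. Mki67, the proliferation marker, was at 2.11 TPM there and 11.6 to 89.8 TPM elsewhere, and the level of the 18 cell cycle genes was 2.49 against 4.20 to 6.19. The Shh tumors had Myc at 9.31 to 28.8 TPM. The Myc subgroup of R26P115 comes from the study's table of mice, and its own Myc level was below that of every other Myc tumor.

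Squamous epithelium was high in R26P123 alone, a tumor of the jaw. Its 12 genes, keratins and cornified envelope proteins of skin and oral lining, summed to 3588 TPM there, 4.9 to 191.1 TPM in the other higher tumors and 6.4 to 63.9 TPM in the lower tumors. Krt5 and Krt14, the keratins of the basal layer, were at 232 and 599 TPM in R26P123. Outside it both were under 1 TPM but for R26P170, with 5.40 and 6.41 TPM. Krt13 and Krt4, the keratin pair of the oral mucosa, were at 608 and 407 TPM and at 0.17 TPM or less in the other 10 tumors. The median of the list was 4.74 with R26P123 and -1.65 without it. Muscle and osteoclast genes were high in the same tumor.

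The promoters of the cornified envelope genes Lor and Sprr1a are shown because those genes mark R26P123. RefSeq gave a promoter for 7 of the 12 squamous genes, and 4 of them, Krt13, Ivl, Lor and Sprr1a, held TGACTCA, the site of AP-1 factors, in the 250 bases before the start on either strand. Among all genes with a promoter, 5.16% held it, and among the 15 muscle genes none did. In the promoters of Lor (chr3:92083143-92083392, minus strand) and Sprr1a (chr3:92485882-92486131, minus strand), printed in the direction of transcription, the site is in capitals and reads TGAGTCA, its other strand. The E-box CAGCTG, found in 3 of these 7 promoters, does not overlap with the capitals in the sequences below.
Lor: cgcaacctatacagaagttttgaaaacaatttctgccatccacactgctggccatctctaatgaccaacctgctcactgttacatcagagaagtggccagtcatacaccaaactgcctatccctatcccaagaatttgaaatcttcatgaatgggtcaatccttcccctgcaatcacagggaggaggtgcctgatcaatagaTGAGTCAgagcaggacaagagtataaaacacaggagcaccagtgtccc
Sprr1a: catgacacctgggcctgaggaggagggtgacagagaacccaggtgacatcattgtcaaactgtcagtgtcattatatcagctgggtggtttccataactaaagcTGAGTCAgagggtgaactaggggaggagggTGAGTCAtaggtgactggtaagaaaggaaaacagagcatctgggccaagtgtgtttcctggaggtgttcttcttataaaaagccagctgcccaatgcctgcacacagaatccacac

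**Figure D3:**
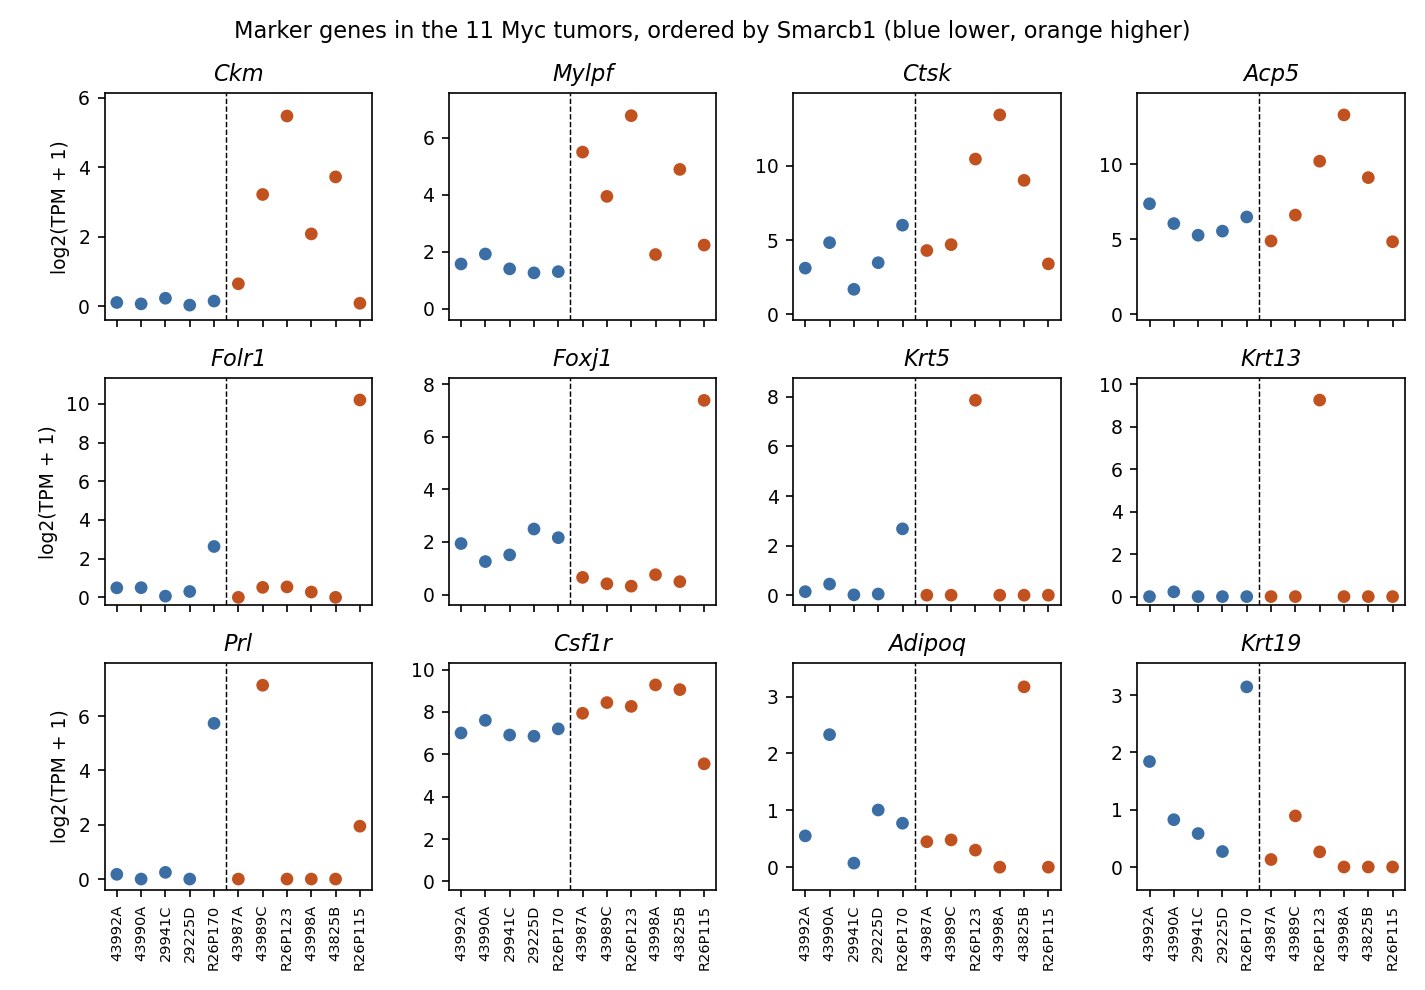
Each panel gives the log2(TPM + 1) of a marker gene in the 11 Myc tumors, ordered by Smarcb1, with lower tumors in blue, higher tumors in orange and a dashed line at the cut. Ckm and Mylpf are raised in several higher tumors, Ctsk and Acp5 in 3, Folr1 and Foxj1 in R26P115 alone, and Krt5 and Krt13 mainly in R26P123.

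Leukocyte lists varied between the tumors of both groups. Macrophage genes summed to 4340 to 7466 TPM in the lower tumors. They summed to 18216 TPM in 43825B, 12664 in 43989C, 8285 in 43987A and 7683 in R26P123, all above the lower tumors, and to 3980 in 43998A and 2477 in R26P115, both below them. By the level of the list, only 43825B (9.14) and 43989C (8.66) lay above every lower tumor. The levels of 43987A (8.02) and R26P123 (8.17) were under that of the lower tumor 43990A (8.21). Csf1r, the receptor for CSF1 that macrophages and osteoclasts share, was at 115 to 193 TPM in the lower tumors. It was at 244 to 618 TPM in 5 higher tumors and at 45.8 TPM in R26P115 (log2 fold change 1.38 ± 0.49 SE, edgeR's adjusted p = 0.431, DESeq2's adjusted p = 0.134). Adgre1, which encodes F4/80, ran from 23.6 to 113 TPM in the lower and from 10.4 to 181 TPM in the higher tumors, which enclosed the lower range. Without 43825B the median of the macrophage list was 0.07 in place of 0.49. The dendritic cell list was highest in 43825B, where Ccr7 was at 151 TPM against 0.52 to 16.5 TPM elsewhere, and its median was 0.34 in place of 1.09 without that tumor. T and NK cell genes had a median of 0.07, which ran from -0.55 without 43825B to 0.88 without 43990A and was 3.02 with the sex label as a covariate. None of the 12 members passed an unadjusted p of 0.05, and Cd3e was at 0.00 to 5.16 TPM in the lower and 0.25 to 5.25 TPM in the higher tumors.

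Neutrophil genes had no stable direction. The list had a median of -1.34, with 3 of 10 members, Ly6g, Elane and Ngp, past an unadjusted p of 0.05, where 4.26% of all genes were. With the 3 members that were at the floor in a whole group set to their bounds, the median was 0.19, and without 43990A or 43992A it was -0.36 or -0.49. Over the members with a mean count of at least 50 it was 0.29. S100a8 was at 30.3 to 140 TPM in the lower tumors and 0.57 to 377 TPM in the higher tumors, which enclosed the lower range. Platelet, mast cell and erythroid lists had medians of 0.15, 0.54 and 0.66, and 0.64, 0.54 and 0.10 with such members at their bounds. They turned to -0.72 without R26P115 and to -0.52 and -0.39 without R26P123, so that none of these lists had a stable direction. Alas2, the erythroid heme enzyme, was at 5.96 TPM at most, in R26P123.

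Endothelial genes differed by less than the spread between tumors. The list had a median of 0.39 and its level was 3.71 ± 0.58 (SD, n = 6) against 3.44 ± 0.69 (SD, n = 5), and its median was 0.83 without 29225D. Pecam1 was at 11.3 to 32.2 TPM in the lower tumors and at 14.4 to 43.1 TPM in 5 higher tumors, with 120 TPM in 43987A (log2 fold change 1.25 ± 0.53 SE, edgeR's adjusted p = 0.431). With the cut at 15 TPM, which moves 43987A to the lower group, its log2 fold change turned to -0.28. Cdh5 had a log2 fold change of 1.07 ± 0.39 SE and Cldn5 one of -2.46, the latter with 396 TPM in the lower tumor 43992A. Rgs5, a pericyte marker, had a log2 fold change of 0.03 ± 0.60 SE. The fibroblast list had a median of 1.49, with 8 of 12 members above 0 and 3 past an unadjusted p of 0.05 in the higher direction (7.07% of all genes). Lum, Entpd2, Pdgfra and Fbln1 had log2 fold changes of -1.14, -0.66, -0.58 and -0.20. Of the others, Pi16 was at 29.4 TPM in R26P123 and Dcn at 5750 TPM in 43825B, and Mfap5 was called by DESeq2 in the higher direction, as were 1.06% of all genes (log2 fold change 2.5 ± 0.84 SE, DESeq2's adjusted p = 0.0477). Without 43825B the median of the fibroblast list was 0.96.

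Pituitary genes summed to 425 TPM in 43989C, 334 in R26P170 and 93.6 in R26P115, and to 3.09 TPM or less in the other 8 tumors. Gh and Prl, the growth hormone and prolactin genes, were at 175 and 139 TPM in the higher tumor 43989C and at 159.9 and 52.1 TPM in the lower tumor R26P170. In the other 9 tumors, among them R26P115 with its sum of 93.6 TPM, they were at 2.85 TPM or less. The tumors 43989C and R26P170 were intracranial extra-CNS, and they had 16.7 and 11.7 TPM of Smarcb1. The median of the list was -0.26, and it was -4.27 without 43989C and 3.69 without R26P170. Prx, a gene of myelinating Schwann cells, had a log2 fold change of -0.12 ± 0.58 SE. Slc47a1, a transporter of meningeal fibroblasts, was at 7.78 TPM in 43989C and 3.97 in R26P115, and at 1.11 TPM or less elsewhere. Of the 8 members of the meningeal fibroblast list, 5 had a log2 fold change above 0, while Foxc1, Slc22a6 and Aldh1a2 had -2.13, -1.95 and -0.66. By the level of the list, 3 of 6 higher tumors lay below every lower tumor and 2 above. Without 43989C the median of the meningeal fibroblast list was 0.20 in place of 1.13, and that of the Schwann cell list 0.59 in place of 0.97. Ptgds, made by leptomeninges and choroid plexus, was at 2540 TPM in R26P115, 222 in 43989C and 8.67 TPM or less elsewhere.

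Adipocyte genes were high in 43825B, a tumor of the back, and 43990A. Adipoq was at 8.0 TPM in 43825B, 4.03 in 43990A and 1.01 TPM or less in the other tumors, and the log2 fold change was 0.35 ± 1.51 SE. Without 43825B the median of the list turned from 1.13 to -0.65. The salivary list rested on Aqp5, a water channel that other epithelia and glands share, at 273 to 838 TPM in the 4 extracranial higher tumors and 0.15 to 49.2 TPM in the lower tumors. The salivary genes Smgc, Dcpp1, Dcpp2 and Muc19 were at 0.07 TPM or less in every Myc tumor. With site as a covariate the log2 fold change of Aqp5 turned from 4.72 to -1.82. Tooth genes were at or near 0 throughout, with Amelx at 0.0463 TPM at most. Of the olfactory neuron list, Gng13 was at 468 TPM in 43825B and 1.95 to 74.8 TPM elsewhere, while the defining marker Omp was at 4.72 TPM there and 0.85 TPM or less elsewhere. Des, the intermediate filament of muscle that stood in the smooth muscle list, was called by DESeq2 and followed skeletal muscle, with 70.2 TPM in R26P123, 24.2 in 43825B and 0.485 to 2.77 TPM in the lower tumors.

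Neuron, oligodendrocyte and astrocyte genes had no stable direction. The neuron, oligodendrocyte and astrocyte lists had medians of -0.66, -0.56 and -0.40, of which the second was 0.58 without 29941C and the third 0.10 without 29225D. With site as a covariate these medians turned to 0.02, 0.08 and 0.26, and with the sex label as a covariate to 3.13, 2.57 and 4.06, where the median of all genes was 0.50. Mog, a myelin protein of oligodendrocytes, was at 2.16 TPM in the lower tumor 29941C and at 0.834 TPM or less elsewhere. Aqp4, the astrocyte water channel, was at 27.3 TPM in 29225D and at 0.00 to 7.0 TPM in the higher tumors (log2 fold change -2.30 ± 2.13 SE). Myrf, a factor of myelinating cells, was lower in DESeq2 (log2 fold change -2.05 ± 0.63 SE, DESeq2's adjusted p = 0.049). Microglia, the macrophages of the brain, share many genes with macrophages elsewhere. Their list had a median of 0.95, with 8 of 10 members above 0. Its level was 5.13 in 43987A, 5.36 in 43989C, 5.26 in R26P123 and 5.36 in 43825B, against 3.56 to 4.82 in the lower tumors, 3.68 in 43998A and 3.31 in R26P115. The same 4 higher tumors thus lay above every lower tumor for this list and for skeletal muscle. Tmem119 and P2ry12, markers of microglia, were at 126 and 27.8 TPM in 43989C and had log2 fold changes of 0.93 ± 0.64 and 0.48 ± 0.59 (SE).

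Simple epithelium was the list with the lowest median (-2.0), with 3 of 10 members past an unadjusted p of 0.05 in the lower direction (4.26% of all genes). Epcam, an adhesion protein of epithelia, was at 1.91 to 99.1 TPM in the lower and 0.51 to 32.6 TPM in the higher tumors (log2 fold change -2.12 ± 0.94 SE). Cldn7, a claudin of tight junctions, was called by DESeq2 and rested on 43992A and R26P170, with 9.44 and 10.2 TPM against 0.40 TPM or less in the other 9 tumors. Krt8 and Krt18 were at 1012 and 984 TPM in 43992A, 1135 and 2143 in 29225D, and 1054 and 598 in the higher tumor 43825B. In 43990A and 43987A, both were under 3 TPM, so that the groups overlapped.

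Set side by side, the tumors formed a patchwork. The step taken was a list level at least 1 log2 unit above its median over the 11 tumors. By this measure, 43987A stood out for skeletal muscle (1.30). The tumor 43989C stood out for pituitary (2.73), meningeal fibroblast (2.02), skeletal muscle (1.49), Schwann cell (1.47), neuron (1.33) and macrophage (1.0). R26P123 stood out for squamous epithelium (6.42), skeletal muscle (3.59) and osteoclast (3.54), and 43998A for osteoclast alone (6.28). The tumor 43825B stood out for osteoclast (2.46), adipocyte (1.95), dendritic cell (1.92), skeletal muscle (1.85) and macrophage (1.49). R26P115 stood out for choroid plexus (8.37), ciliated epithelium (4.04), melanocyte (2.11), astrocyte (1.46), meningeal fibroblast (1.28) and pituitary (1.07). Its Gh and Prl were nevertheless far below their levels in 43989C.

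Of the lower tumors, 43990A had no list past this step, and 43992A had 1, simple epithelium (1.99). 29941C had oligodendrocyte (1.70) and neuron (1.28), and 29225D had astrocyte (2.05), cartilage (1.51), neuron (1.09) and smooth muscle and pericyte (1.03). R26P170, just under the cut, had pituitary (3.30), simple epithelium (1.95) and neuron (1.26).

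**Figure D4:**
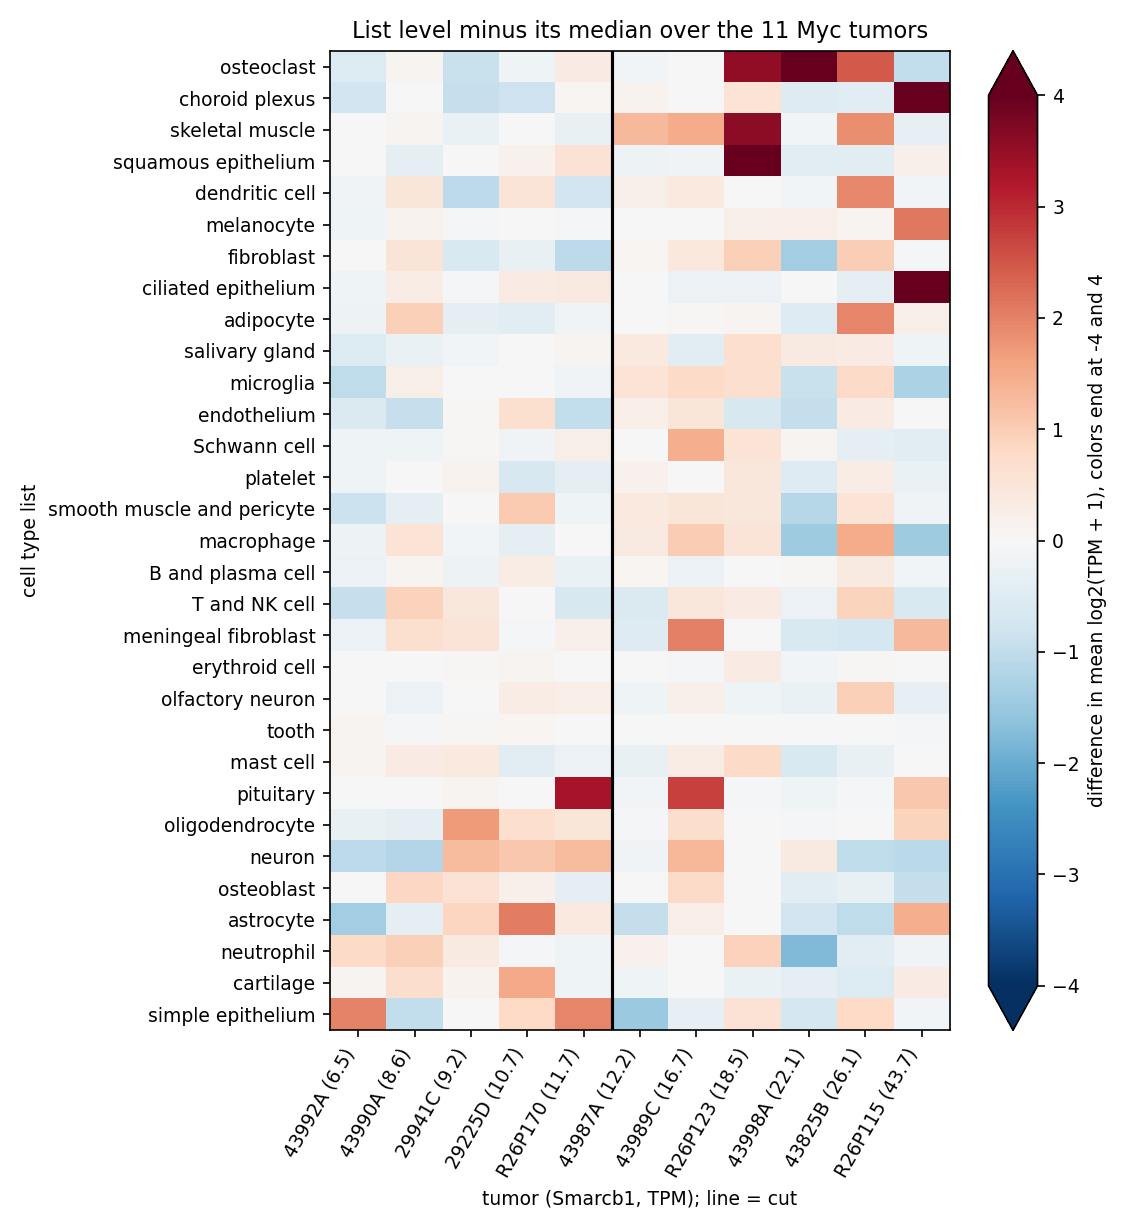
Rows are the 31 cell type lists and columns the 11 Myc tumors in order of Smarcb1 (TPM in brackets), and color gives the list level minus its median over the tumors in log2 units, with the scale ending at -4 and 4. The higher tumors, right of the line, are raised in different rows, with choroid plexus in R26P115 (8.37), squamous epithelium in R26P123 (6.42) and osteoclast in 43998A (6.28).

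The lists for the cell cycle, SWI/SNF subunits, and oncofetal genes and Myc were compared with the same fit. Bulk RNA does not assign them to tumor cells. The cell cycle list had a median of -0.37 and 0 of 18 members past an unadjusted p of 0.05. Its level was 4.81 ± 1.15 (SD, n = 6) against 5.34 ± 0.74 (SD, n = 5), with R26P115 far below, and the median was -0.15 without that tumor. The other SWI/SNF subunits had a median of -0.14, which was -0.03 without 43990A and -0.06 without 43992A, and their level was 4.39 to 5.03 in the higher and 4.78 to 5.26 in the lower tumors, with 4 of 6 higher tumors below every lower tumor. Smarca4, the ATPase, had a log2 fold change of 0.13 ± 0.23 SE, Smarce1 one of -0.15 ± 0.20 SE and Smarcc1, a core scaffold, one of -0.55 ± 0.30 SE. Each of these intervals of 2 SE covers 0. Arid1a, a subunit of the BAF complex, and Dpf1 had an unadjusted p under 0.05, both in the lower direction (4.26% of all genes), and Arid1a had a log2 fold change of -0.53 ± 0.23 SE. Dpf1, a neural variant subunit, was called lower by DESeq2 with 2.95 to 56.6 TPM against 1.66 to 3.67 TPM, and the highest value was that of 43990A.

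Of the 14 genes of the oncofetal and Myc list, 3 had an unadjusted p under 0.05, all lower with more Smarcb1, where 4.26% of all genes were. Igf2bp1, a fetal RNA-binding protein, was at 36.9, 21.9, 2.19, 23.2 and 0.52 TPM in the lower tumors from 43992A to R26P170 and at 0.01 to 0.87 TPM in the higher tumors. Only R26P170 overlapped (log2 fold change -5.52 ± 1.15 SE, DESeq2's adjusted p = 2.86e-05). Its relative Igf2bp3 was at 0.60 to 33.9 TPM against 0.09 to 0.84 TPM (log2 fold change -4.92 ± 1.13 SE). Igf2 and H19, the imprinted pair, overlapped, with log2 fold changes of -0.24 ± 1.36 and -0.47 ± 1.02 (SE). Myc had a log2 fold change of -0.53 ± 0.53 SE and Mki67 one of -0.06 ± 0.64 SE.

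Smarcb1 was then used as a number, log2(TPM + 1), in place of the split. With all 11 tumors, 511 genes (2.4%) had a positive slope and 79 (0.372%) a negative slope at an adjusted p under 0.05 in edgeR. Without any 1 tumor the total ran from 19 without R26P115 to 742 without 43825B. Of the cell type members with a positive slope, 5 were choroid plexus, 4 melanocyte and 3 ciliated epithelium genes, and 1 each was an astrocyte (Aldh1l1) and a cartilage gene (Col9a3). Skeletal muscle and osteoclast had 0 members past this threshold.

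Without R26P115, 19 of 21119 genes (0.09%) passed, 16 with a positive and 3 with a negative slope. The genes named from these were chosen after their values were seen. Lcp1, the actin bundler L-plastin of leukocytes, was at 41.1, 107, 88.4, 79.9, 73.8, 112, 178, 197.0, 248 and 345 TPM in the 10 tumors in order of Smarcb1 (slope 1.48 ± 0.18 SE per log2 unit of Smarcb1, edgeR's adjusted p = 0.0272). Nckap1l, a hematopoietic actin regulator, Csf2ra, the receptor for GM-CSF, and Zeb2 had slopes of 1.25 ± 0.16, 1.17 ± 0.15 and 1.08 ± 0.15 (SE), with edgeR's adjusted p of 0.0315, 0.0315 and 0.0449. R26P115 itself had 43.0 TPM of Lcp1 and 15.9 TPM of Nckap1l, near or below the lowest of the other tumors, and with it in the fit none of these 4 genes passed. Csf2ra was also at 51.5 to 162 TPM and Zeb2 at 10.4 to 46.3 TPM in the Shh tumors, whose Lcp1 was at 16.3 to 31.7 TPM. Hip1r, an adaptor of endocytosis, and Atp2b4, a plasma membrane calcium pump, also passed and did not overlap between the groups. Traf4, a signalling adaptor, had a slope of -1.34 ± 0.18 SE.

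**Figure D5:**
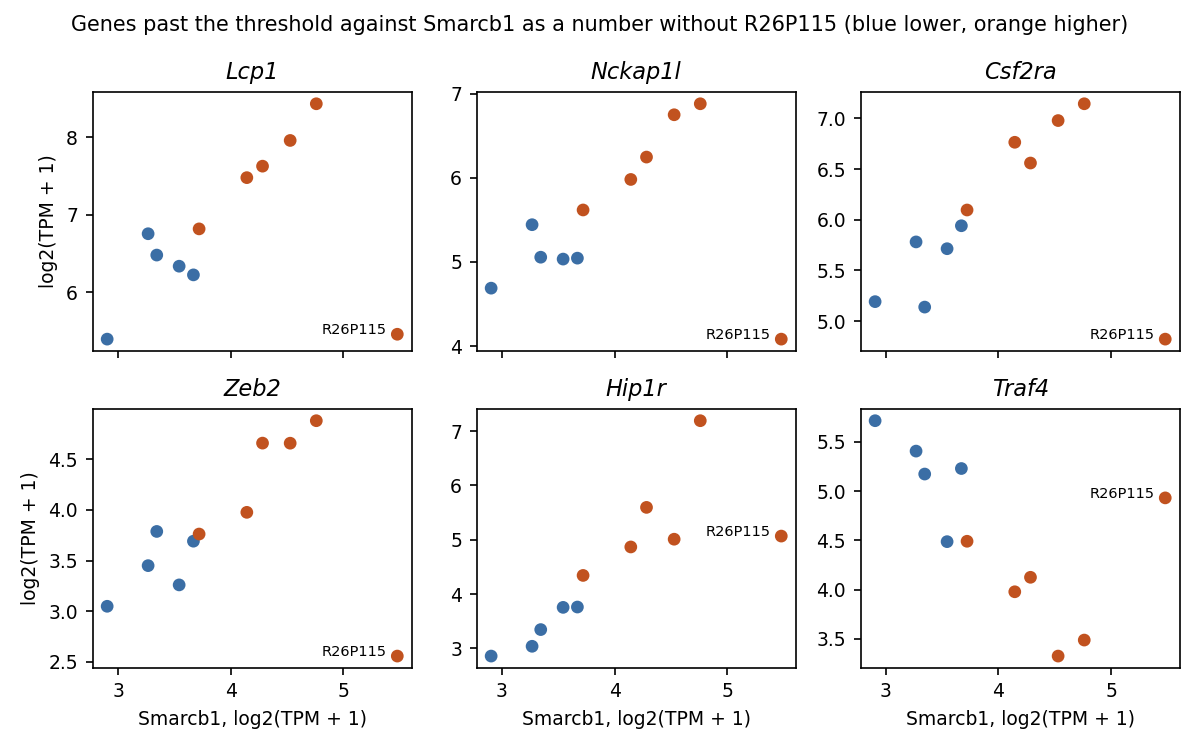
Each panel plots log2(TPM + 1) of a gene against that of Smarcb1 in the 11 Myc tumors (blue lower, orange higher) for 6 of the 19 genes past the threshold when R26P115 was left out. Lcp1, Nckap1l, Csf2ra, Zeb2 and Hip1r climb and Traf4 declines over the other 10 tumors, and R26P115 lies below that course for Lcp1, Nckap1l, Csf2ra and Zeb2.

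Without R26P115, the skeletal muscle list had a median slope of 2.92, with 8 of 20 members at an unadjusted p under 0.05 in the positive direction (7.64% of all genes). The osteoclast list had 4.79, with 9 of 10, and the squamous list had 6.75, with 6 of 12. The level of the squamous list was 7.21 in R26P123 and 0.33 to 1.36 in the other Myc tumors, and without R26P123 its median in the split turned from 4.74 to -1.65. A further osteoclast member was past an unadjusted p of 0.05 in the negative direction, where 1432 of 21119 genes were. Choroid plexus, macrophage and endothelium had median slopes of -0.35, 0.58 and 0.28, with 0 of 7, 3 of 12 and 0 of 12 members past it in the positive direction and 0, 0 and 1 in the negative direction. These slopes rest on the same tumors as the split.

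Over the 11 tumors, the genes most like Smarcb1 in log2(TPM + 1) were Cyp4f16 (Pearson's r = 0.96), Hnmt (0.95), Aldh3b1 (0.95), Slc16a6 (0.95) and Amer2 (0.93), and without R26P115 these were 0.93, 0.91, 0.93, 0.92 and 0.87. The points share their depth and tissue mix, so that the values are a description. Hnmt, which inactivates histamine, ran from 0.35 TPM in 43992A to 38.0 in R26P115. Of the neighbours of Smarcb1 on chromosome 10, Derl3, Mif and Gstt2 on one side had log2 fold changes of -2.32, -0.69 and -0.42, and Mmp11, Chchd10 and Gm867 on the other side had -0.45, 2.97 and 2.64. None was called by edgeR. Chchd10 was at 373 TPM in R26P115 and 81.6 in 43998A, and the neighbours did not share a direction.

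The Shh tumors were not used by the rule. Smarcb1 was 3.99 TPM in 38594A, 4.48 in R26P98, 7.08 in R26P87, 9.91 in 29050A and 58.1 in 29048. The tumor 29048 also had the highest neuron, oligodendrocyte and astrocyte levels of the 5, with 8.56, 7.97 and 7.97 against 3.64 to 6.93, 1.28 to 3.13 and 2.88 to 5.30. Mog was at 183 TPM and Mbp at 1971 TPM there, and at 3.24 and 33.4 TPM at most in the other 4. Its cell cycle level was the lowest of the 5, with 3.96 against 5.55 to 6.12. Skeletal muscle and osteoclast levels were 1.41 and 1.59 in 29048, below those of the higher Myc tumors that stood out for them.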

How the data were processed

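Poly(A) RNA of 16 tumors was sequenced, each from a different mouse, and p-values measure only the spread between these tumors. The deposited values are raw read counts per gene and TPM values, which the authors made by mapping to mm10 with STAR 2.5.3a. FastQC, Picard and Trim Galore are also named in the submitters' processing notes, and the gene annotation is not given in the sources used here. Total counts of the Myc tumors ran from 17889968 to 110177889, so that the floor of 3 counts is 0.0272 to 0.168 CPM, which covers counting error only. The Myc subgroup came from the study's table of mice and the site from the labels.

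Higher and lower tumors were compared on 24982 genes with edgeR 4.0.16 (TMM, quasi-likelihood test, Benjamini-Hochberg adjustment, genes with a count in any of the tumors fitted, Smarcb1 left out) in R 4.3.3. Genes were called at an adjusted p below 0.05 when the log2 fold change also reached 1 in either direction, and with Smarcb1 as a number an adjusted p alone. DESeq2 1.42.0 and limma 3.58.1 on log2(TPM + 1) were alternatives, besides other cuts, site, mouse name scheme, sex label and tumors left out. The fits were tested on simulated data. The members, the 34 gene lists and the tests were chosen with earlier results of these data known. Named were non-overlapping genes of smallest p, the first 2 genes of each list, called members, Smarca4, Smarcc1, Smarce1, Myc, Mki67, Igf2, H19, the 3 nearest genes on each side of Smarcb1 and the 5 genes most like it, and all others were named after their values were seen. Positions came from GENCODE M21, which held 24490 of the symbols.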

Additional observations from a re-analysis of the deposited data

Results flagged for a closer look

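Of 70 groups of values, which were the list levels and the total counts in the higher and the lower tumors, 10 held a tumor far from the others of its group by Dixon's criterion, which chance alone gives in about 5% of groups. List levels are means of log2(TPM + 1). In the higher group, R26P115 stood apart with 9.65 for choroid plexus, 4.84 for ciliated epithelium and 2.62 for melanocyte genes, and it was low for the cell cycle with 2.49. R26P123 stood apart with 7.21 for squamous epithelium and 0.484 for erythroid genes. The tumor 43825B stood apart with 2.79 for adipocyte and 5.15 for dendritic cell genes. In the lower group, 43990A stood apart with 1.78 for adipocyte genes and R26P170 with 3.57 for pituitary genes. The other tumors of each group lay close together in these lists.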

How the results depend on the processing

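The count of genes past the threshold was 0 in the comparison as given and with DESeq2's size factors in edgeR, a stricter filter on low counts, limma, site or mouse name scheme as a covariate, and cuts of 10 and 15 TPM. It was 318 with DESeq2, 590 with Smarcb1 as a number and 2 in the extracranial tumors alone, where the lower group is the single tumor 43990A, which is assumed to vary like the others, so that those calls describe that tumor. Leaving out each tumor in turn gave 0 to 6 genes. Chosen after seeing the data, the sex label as a covariate gave 17 genes, and the fit with Smarcb1 as a number gave 19 to 742 genes with each tumor left out in turn. Of 88 named genes, 4 turned their direction in a setting. Pecam1 was -0.28 with the cut at 15 TPM, Folr1 -2.49 without R26P115 (-2.49 to 9.83 with each tumor left out in turn), Aqp5 -1.82 with site as a covariate and Acan 2.05 with the cut at 10 TPM (log2 fold changes). The cause was not tested. In 21 of these genes an alternative gave a call that edgeR did not. No paired analysis was possible because all tumors came from different mice and no label links a higher with a lower tumor. Genes near the floor of 3 counts, such as those of teeth, could not show a difference at this depth.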
